A study of Mus musculus with 2 samples.

Results

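The miR-26 family of the mouse consists of 3 microRNA genes, Mir26b, Mir26a-1 and Mir26a-2, each placed inside a gene of the Ctdsp family of phosphatases. The members were taken by symbol from the miRNA genes with a row of counts, 3 of 1973, and were chosen by their measured CPM levels in these libraries, with Mir26b high and the miR-26a copies low. Those levels are therefore described and not tested. The libraries were made from small RNA, under 30 nucleotides, of kidneys from mouse embryos of strain B6NCrl at 14.5 days. There was 1 group with 2 biological replicates, each of 2 kidneys collected on its own day. No treatment or altered allele is given, and the design holds no contrast between conditions. The labels name 1 pup per sample but also pooled sexes and 1 donor identifier for both samples, so the number of embryos per sample is not settled, and the spread between the replicates may be partly technical.

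MicroRNAs are cut from hairpin transcripts into mature strands of about the length of these library inserts, and the seed, bases 2 to 8 of the mature strand, is the main part that pairs with target messenger RNAs. Members of a family share a seed and so tend to recognise overlapping targets. miR-26 is known as a repressor of the histone methyltransferase Ezh2 and of cell cycle genes, and it tends to be more abundant in differentiated than in dividing cells. Its hosts Ctdsp1, Ctdsp2 and Ctdspl encode small phosphatases that act on the C-terminal domain of RNA polymerase II and, with the repressor REST, help to keep neuronal genes silent outside the nervous system.

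The mature 5p strands are shown first, because the comparison between the members turns on which bases they share. Sequences are from RefSeq on GRCm38.p6, and all 3 members matched by symbol. The seed is in capitals.
miR-26a-5p (from Mir26a-1 and Mir26a-2): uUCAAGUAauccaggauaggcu
miR-26b-5p (from Mir26b): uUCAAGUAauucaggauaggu
The 26a strand has 22 bases and the 26b strand 21. Counted from 1 at the 5′ end of miR-26a-5p, 26a differs from 26b by C11U and C21U, both outside the seed. The RefSeq table lists miR-26a-5p for 2 genes and miR-26b-5p for 1 gene, and no other mature strand in it carries this seed.

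The strands from the other arm of each hairpin differ between all 3 genes, so they tell these genes apart. RefSeq lists each of them for 1 gene, and copies outside annotated hairpins were not searched. Bases 2 to 8 are again in capitals.
miR-26a-1-3p: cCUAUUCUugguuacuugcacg
miR-26a-2-3p: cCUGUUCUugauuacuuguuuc
miR-26b-3p: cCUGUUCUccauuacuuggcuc
Between miR-26a-1-3p and miR-26a-2-3p there were 6 substitutions over 22 positions, of which A4G lies in the seed. miR-26a-2-3p and miR-26b-3p share bases 2 to 8 and differ at 4 positions. On this arm, Mir26a-2 is therefore closer to Mir26b than to the other copy of miR-26a.

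The hairpins show how far the likeness reaches beyond the mature 5p strand, which is in capitals.
Mir26b (chr1:74394310-74394394, + strand): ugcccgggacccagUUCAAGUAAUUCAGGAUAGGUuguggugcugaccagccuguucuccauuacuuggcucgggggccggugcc
Mir26a-1 (chr9:119031796-119031885, + strand): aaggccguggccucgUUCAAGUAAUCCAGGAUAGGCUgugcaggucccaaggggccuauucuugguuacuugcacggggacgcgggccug
Mir26a-2 (chr10:126995530-126995613, + strand): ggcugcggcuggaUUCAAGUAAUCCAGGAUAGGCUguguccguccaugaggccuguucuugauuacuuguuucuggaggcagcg
Around the mature strand, the miR-26a hairpins hold the following bases, with the stretch common to both in capitals.
Mir26a-1: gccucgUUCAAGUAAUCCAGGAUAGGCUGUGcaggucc
Mir26a-2: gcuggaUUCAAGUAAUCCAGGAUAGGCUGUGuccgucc
The common stretch of 25 bases is the mature strand plus 3 bases after it, and the base just before the mature strand already differs. A read that lies wholly within these 25 bases matches both loci. The longest stretch that Mir26b shares with Mir26a-1 is 11 bases, and with Mir26a-2 it is 10, so a full-length miR-26b-5p read matches neither.

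All 3 genes lie on the strand of their host, within an intron of at least 1 coding transcript (GENCODE M21, mm10). Mir26b (ENSMUSG00000065468.1) is in intron 4 of Ctdsp1-201, an intron of 564 bases, and is 234 bases from the exon before it and 245 from the exon after it. Its host is compact, at 5777 bases. Mir26a-1 (ENSMUSG00000065513.1) is in intron 5 of Ctdspl-201, an intron of 3283 bases in a host of 117546 bases. Mir26a-2 (ENSMUSG00000065430.1) is in intron 5 of Ctdsp2-202, an intron of 1946 bases in a host of 21259 bases. The first exon of 2 further Ctdsp2 transcripts, Ctdsp2-201 and a transcript with a retained intron, begins at the last base of the Mir26a-2 hairpin, an overlap of 1 base. The fourth gene of the host family, Ctdspl2, holds 0 of the miRNA genes with a row. Host messenger RNA is not measured in libraries of this size range.

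**Figure D1:**
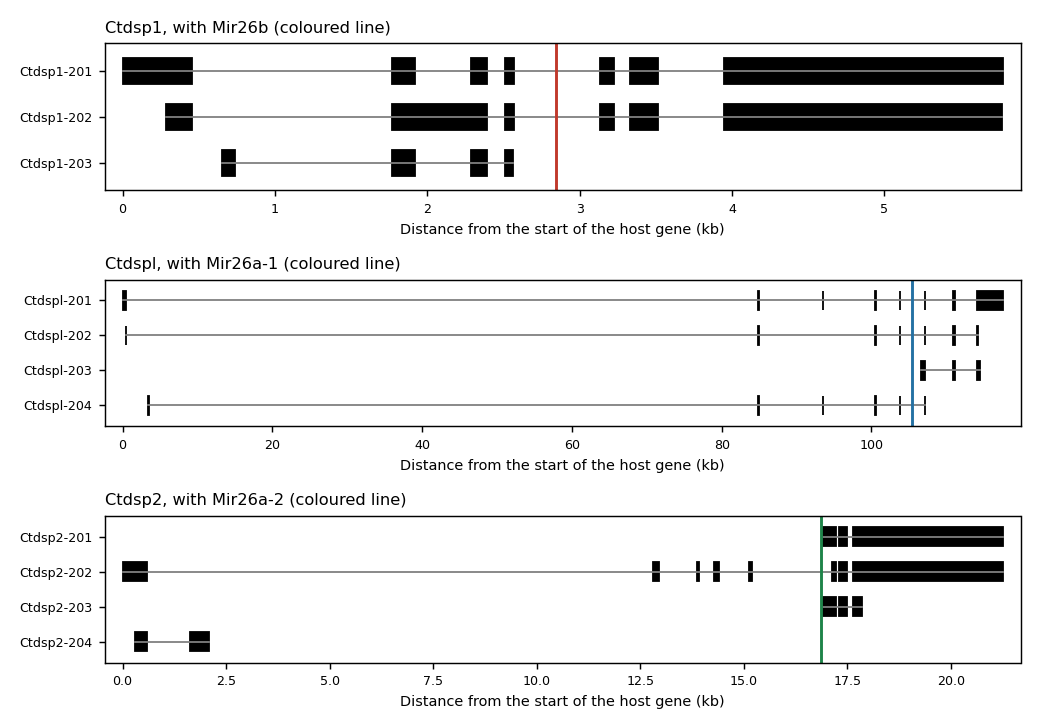
Each panel shows the annotated transcripts of 1 host gene by distance in kb from its start, with exons as black boxes, introns as grey lines and the miRNA hairpin as a coloured line. The hairpins sit in introns of Ctdsp1-201, Ctdspl-201 and Ctdsp2-202, and the host lengths range from 5777 to 117546 bases.

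Levels are given as CPM, the counts of a gene on its own strand scaled to a library total of 1000000. These totals were 5202588 in replicate 1 and 3683978 in replicate 2, where 3 counts, the limit that a count of 0 allows, correspond to 0.577 and 0.814 CPM. Reads with more than 1 match in the genome were tallied apart from the genes and made up 28.3% and 27.5% of all reads. A check for a library deposited under both labels found no agreement within sampling noise over the detected genes (chi-square 46611, 344 degrees of freedom), which at this depth small differences can give and which does not show separate animals. Markers of the labelled tissue were present in both libraries, with 5 of 5 trunk Hox miRNA genes, 3 of 3 epithelial genes and 4 of 4 tubule genes detected. Detected means at least 10 counts in each replicate, which 17.5% of all 1973 genes reached. Among markers of other tissues, hepatocyte Mir122 was at 56.3 and 1074 CPM and the erythroid pair summed to 154 and 73.0 CPM in replicates 1 and 2. Leukocyte Mir223 was at 266 and 268 CPM and muscle Mir206 at 72.3 and 53.5 CPM. Tubule Mir192, Mir204 and Mir194-2 had means of 174, 146 and 100 CPM, below Mir223, while tubule Mir30a had 11164 CPM. Detection alone therefore does not set the markers of the labelled tissue apart from the others. Of the full lists, 1 of 3 leukocyte, 1 of 4 muscle and 0 of 4 neural genes were detected. Mir142b, Mir1a-1 and Mir133a-1 had 0 counts, and Mir142 and Mir1a-2 had no row. The 0 counts do not show that these cells were absent. The 4 neural genes summed to 0.192 and 0 CPM, but their mature strands come from several genes, so the counting can set this and it does not show that neural tissue was absent.

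Nearly all counts of the family came from Mir26b. Replicate 1 gave it 128040 counts and replicate 2 gave it 108934, or 24611 CPM (95% exact Clopper-Pearson interval 24478 to 24744) and 29569.7 CPM (29397 to 29743). Its mean was 27090.2 ± 3506 CPM (SD, n = 2). It thus held 2.46% of the counts in replicate 1 and 2.96% in replicate 2, and the counting intervals of the libraries did not overlap. Every interval in the text stands for counting error alone, and PCR copies without molecular identifiers make it too narrow.

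Both copies of miR-26a were low. Mir26a-1 had 100 and 83 counts, or 19.2 CPM (15.6 to 23.4) in replicate 1 and 22.5 CPM (17.9 to 27.9) in replicate 2, with a mean of 20.9 ± 2.34 CPM (SD, n = 2). Mir26a-2 had 300 and 186 counts, or 57.7 CPM (51.3 to 64.6) and 50.5 CPM (43.5 to 58.3), with a mean of 54.1 ± 5.07 CPM (SD, n = 2). The values of the 3 genes did not overlap, and their order was Mir26b, Mir26a-2, Mir26a-1 in both libraries. All 3 had at least 10 counts in each replicate, the minimum for calling a gene detected, which 17.5% of the 1973 genes reached.

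**Figure D2:**
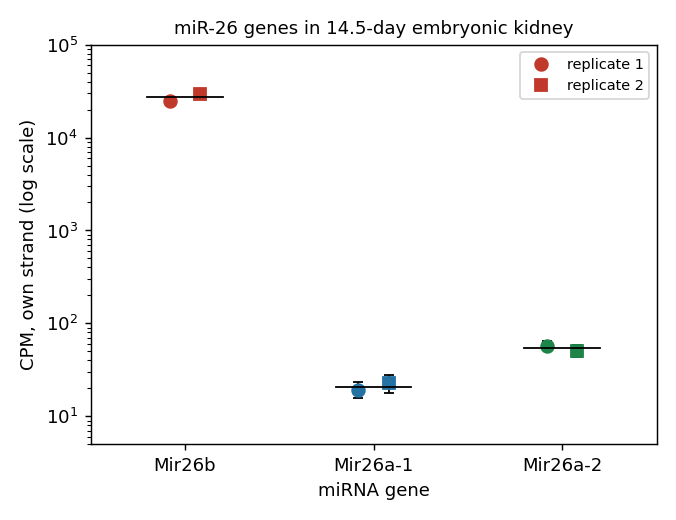
CPM on the strand of the gene (log scale) for the 3 miR-26 genes, with replicate 1 as circles, replicate 2 as squares, their mean as a line and 95% exact intervals of counting error as bars. Mir26b lies at 24611 and 29569.7 CPM, and both miR-26a copies lie below 60 CPM.

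Within the libraries, Mir26b had 320.1 times the counts of both miR-26a copies together in replicate 1 (95% exact interval 290.2 to 354) and 405 times in replicate 2 (359 to 458). On the scale of log2(CPM + 1), Mir26b exceeded the mean of the copies by 9.61 ± 0.18 (SD, n = 2). The excess was 10.27 ± 0.03 over Mir26a-1 and 8.94 ± 0.32 over Mir26a-2. Mir26b held 99.7% ± 0.0460 of the family's counts, and the family held 2.72% ± 0.350 of all counts on the strand of the genes.

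These ratios compare reads that could be placed at 1 locus. The tally of reads with several matches held 2960222 reads in replicate 1 and 1862424 in replicate 2, which is 23.1 and 17.1 reads for each count of Mir26b. The tables do not say which miRNAs those reads came from, so the share of miR-26a-5p in them was not tested. They also do not separate the arms of a hairpin, and the counts of Mir26a-1 and Mir26a-2 may hold 3p strands, longer reads or both. The values therefore give no order between total miR-26a and miR-26b in the tissue.

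The copies of miR-26a also differed from each other. Mir26a-2 had 3 times the counts of Mir26a-1 in replicate 1 (95% exact interval 2.38 to 3.80) and 2.24 times in replicate 2 (1.72 to 2.94). The difference on the scale of log2(CPM + 1), Mir26a-1 minus Mir26a-2, was -1.33 ± 0.29 (SD, n = 2). Division by hairpin length, 90 bases for Mir26a-1 and 84 for Mir26a-2, kept the order, at 0.232 ± 0.0260 and 0.644 ± 0.0604 CPM per base (SD, n = 2). Mir26b, with a hairpin of 85 bases, reached 319 ± 41.3 CPM per base.

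Mir26b took rank 11 of the 345 detected genes by mean CPM. The genes nearest to it were Mir322 at 30535 ± 675 CPM and Mir196b at 28115 ± 4986 CPM above, and Mir130a at 25183 ± 1739.9 CPM and Mir23b at 23449 ± 2660.1 CPM below (SD, n = 2). Its range overlapped those of Mir196b, Mir130a and Mir23b, and Mir196b and Mir23b changed sides of it between the libraries, so its place beside them is not resolved. Mir322 was above it and Mir130a below it in both libraries. Among the 166 detected genes that lie inside a coding gene on the same strand, Mir26b was at rank 6, after miRNA genes of Mest, the Hoxd genes, Egfl7, Wdr82 and Hoxa9. The median of those 166 genes was 89.9 CPM, and that of all detected genes was 114 CPM.

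Mir26a-2 was at rank 211 and Mir26a-1 at rank 252. Next to Mir26a-2 stood Mir1251 at 56.2 ± 16.5 CPM, Mir212 at 55.3 ± 7.96 CPM, Mir679 at 52.8 ± 4.01 CPM and Gm23935 at 48.9 ± 30.8 CPM. Next to Mir26a-1 stood Mir1249 at 22.4 ± 3.20 CPM, Mir3099 at 21.1 ± 5.43 CPM, Mir466n at 20.7 ± 0.883 CPM and Mir1247 at 20.5 ± 11.7 CPM. Each of these 8 genes overlapped its miR-26a neighbour in range, so none of these places in the order is resolved. Mir1249 was above Mir26a-1 in both libraries, at 105 and 91 counts beside 100 and 83. The others changed sides of their neighbour between the libraries. Likeness here means only mean CPM over 2 libraries.

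**Figure D3:**
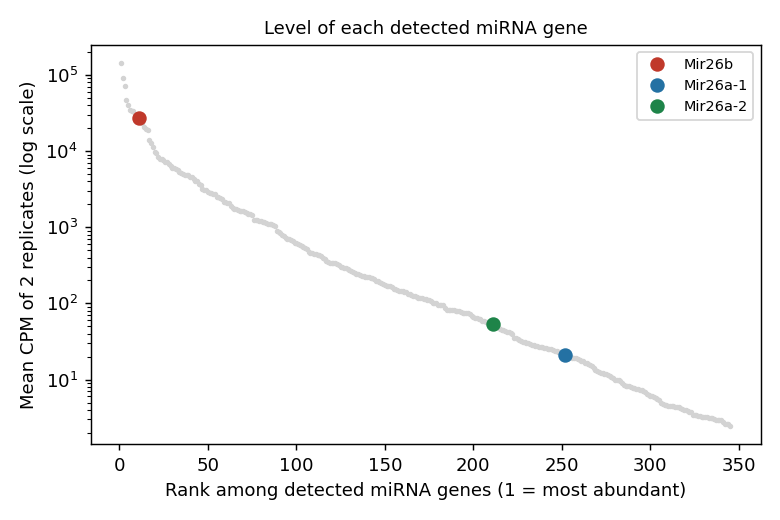
Mean CPM of the 2 replicates (log scale) of the 345 detected miRNA genes by rank, with the miR-26 genes in colour. Mir26b stands at rank 11, and Mir26a-2 and Mir26a-1 stand at ranks 211 and 252.

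Between the replicates, all 3 members differed by less than 1.5-fold. The log2 ratio of replicate 2 over replicate 1 was 0.26 for Mir26b (95% exact interval 0.25 to 0.28), 0.23 for Mir26a-1 (-0.21 to 0.66) and -0.19 for Mir26a-2 (-0.46 to 0.08). The counting interval of Mir26b excluded 0, and those of the copies did not. A ratio beyond 1.5-fold in either direction was found in 0 of the 3 members and in 53 of 345 detected genes (15.4%). This sets 1 library against the other and carries no test between conditions. Among the 13 other genes within 2-fold of Mir26b in mean CPM, the log2 ratios ran from -0.26 to 0.36. Among the 58 genes within 2-fold of Mir26a-1 they ran from -1.32 to 1.05, and among the 60 within 2-fold of Mir26a-2 from -1.69 to 0.93. Mir122, high in replicate 2 as given above, moved in the same direction as Mir26b, and its part in the ratio of Mir26b was not tested.

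**Figure D4:**
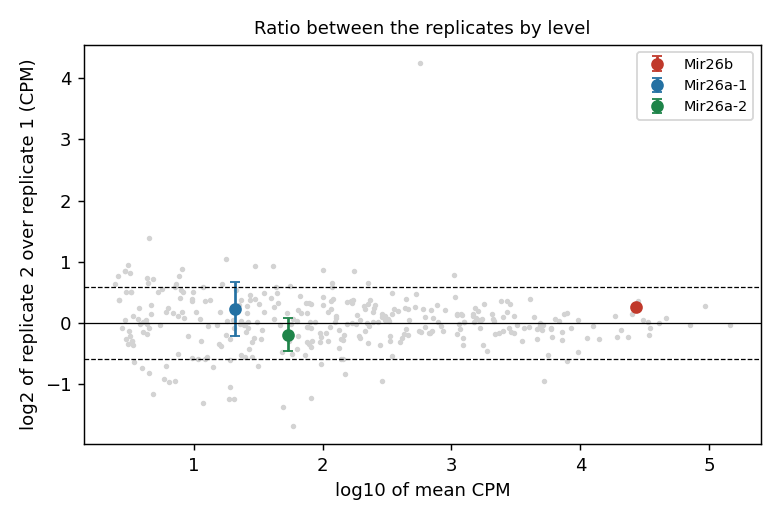
Log2 ratio of replicate 2 over replicate 1 against log10 of mean CPM for the 345 detected genes, with 95% exact intervals for the miR-26 genes in colour and dashed lines at 1.5-fold. The members lie at 0.26, 0.23 and -0.19, inside the dashed lines.

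On the opposite strand, Mir26b, Mir26a-1 and Mir26a-2 had 0 counts in both libraries. For Mir26b this allows an opposite-strand share of up to 0.00234% in replicate 1 and 0.00275% in replicate 2. For Mir26a-1 the limits were 3% and 3.61%, and for Mir26a-2 they were 1% and 1.61%. Over all genes the opposite strand held 1.93% and 1.80% of assigned counts. The limits of Mir26a-2 lay below these shares, and those of Mir26a-1 lay above them, where its counts are too few to tell.

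Other miRNA families also hold genes with a mature strand of their own beside genes whose mature strand has copies. RefSeq matures could be linked by position to 858 genes, among them 298 of the 345 detected, and the table is not complete. Of these 858, 83 carry at least 1 mature strand listed for another gene, and 44 of the 83 (53.0%) were detected, with a median of 64.1 CPM and a highest value of 4578 CPM, at Mir92-1. Of the 775 genes with mature strands of their own, 254 (32.8%) were detected, with a median of 127 CPM and a highest value of 144007 CPM. Over all genes of each kind, detected or not, the medians stood the other way, at 4.81 CPM for the 83 and 0.503 CPM for the 775. Within the 44, Mir26a-2 was at rank 25 and Mir26a-1 at rank 33, and both lay below the median of 64.1 CPM.

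In 19 seed families besides miR-26 that hold both kinds, the highest gene with its own mature strand exceeded the highest gene with copies in 13. In 11 of these families both of those genes were detected, and the gene with its own strand was higher in 9. Over these 11, the difference in log2(CPM + 1) ran from -3.94 to 7.43, with a median of 3.48. Over all 19 it ran from -6.85 to 11.50. The lower end is Mir6369, a gene with 0 counts, against Mir24-2, and the upper end is Mir149 against Gm27775, a gene with 0 counts. Mir149 enters its family by its 3p seed, although the counts join both arms. The difference of 8.94 between Mir26b and Mir26a-2 lay above all 11, and below 1 family of the 19, that of Mir149. It was among the values that chose the members, so this is a description only. Reads with several matches were tallied apart, so genes whose mature strand has copies can lack their mature reads here. The counting can therefore set the order within such families, and its part was not tested.

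The families of highest summed CPM showed the same order, under the same limit of the counting. Mirlet7i, at 40642 ± 108 CPM, stood above Mirlet7f-2 at 1230.1 ± 149 CPM. In the seed family of miR-16, Mir322 at 30535 ± 675 CPM stood above Mir16-1 at 2167 ± 202 CPM. Mir30e at 20748 ± 1188 CPM stood above Mir30c-1 at 120.0 ± 22.3 CPM, the family difference nearest in size to that of miR-26. Mir196b at 28115 ± 4986 CPM stood above Mir196a-2 at 2495 ± 126 CPM. Mir98 at 5868 ± 279 CPM stood above Mirlet7a-1 at 143 ± 41.2 CPM in a family grouped by a 3p seed, although the counts join both arms and Mir98 is also in the let-7 family by its 5p seed. Mir181d at 4334 ± 215 CPM stood above Mir181a-1 at 1561 ± 66.1 CPM (SD, n = 2 throughout). Mir181c, named after its values were seen, was higher at 4825 CPM. It was not linked to a mature strand and so was left out of that family. In the seed family of miR-92, the order was opposite, with Mir25 at 1059 ± 219 CPM and Mir92-1 at 4578 ± 579 CPM; it was named after its values were seen.

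**Figure D5:**
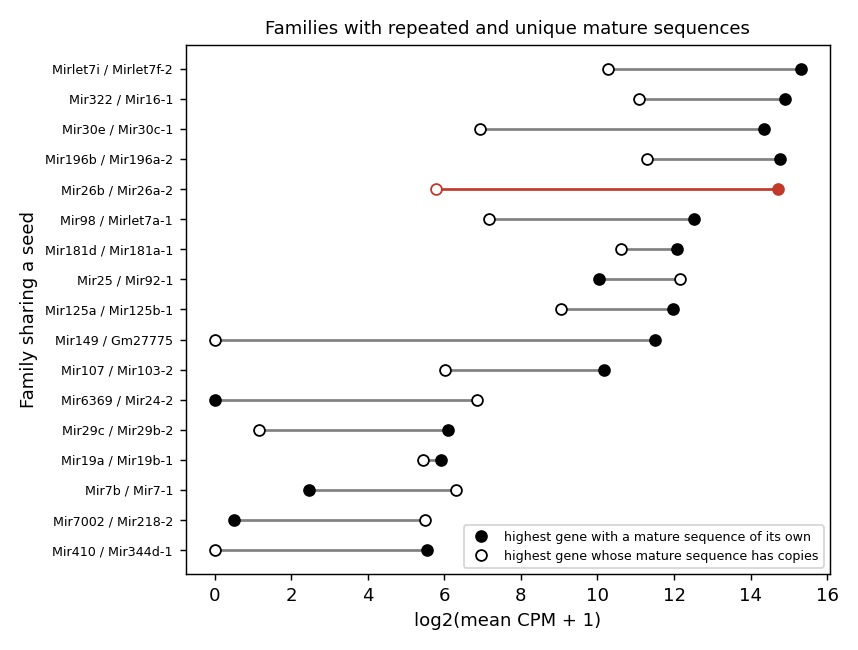
Each line is 1 seed family with at least 1 detected gene, in log2(mean CPM + 1). It runs from the highest linked gene with a mature strand of its own (filled) to the highest whose mature strand has copies (open). The red line joins Mir26b and Mir26a-2, which differ by 8.94.

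The gap between the miR-26a copies was moderate beside other linked pairs. Only pairs in the incomplete RefSeq link given above were compared, so detected pairs outside it are left out. Of 18 other linked pairs that share a mature strand and were both detected, 6 differed by less than Mir26a-2 and Mir26a-1. The difference between these copies was 1.33 (log2 of mean CPM + 1). The 18 linked pairs ran from 0.38, between Mirlet7c-1 and Mirlet7c-2, to 5.42, between Mir196a-2 and Mir196a-1, with a median of 2.33. These end pairs were named after their values were seen. Reads with several matches were tallied apart, so the counting can set such differences, and its part was not tested.

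miR-26 is not the sole family carried by paralogous hosts, and a list of 10 such miRNA genes was set beside it. In the Pank genes, which encode the first enzyme of coenzyme A synthesis, Mir107 reached 1161 ± 57.8 CPM, while the miR-103 copies Mir103-2 and Mir103-1, which share a mature strand, stood at 63.3 ± 1.13 and 4.81 ± 1.64 CPM. That arrangement is the closest to miR-26 in the list, with a log2(CPM + 1) difference of 4.18 between Mir107 and Mir103-2. The copies of miR-103, miR-128 and miR-218 each share a mature strand, and reads with several matches were tallied apart. The counting can therefore set such a difference, and its part was not tested. Mir128-1 in R3hdm1 and Mir128-2 in Arpp21 stood at 83.1 ± 12.4 and 13.5 ± 2.46 CPM. Mir218-2 and Mir218-1, in the axon guidance genes Slit3 and Slit2, stood at 44.4 ± 10.6 and 18.0 ± 0.220 CPM. Of the miRNA genes in myosin heavy chain genes, Mir499 was detected at 3.25 ± 0.784 CPM, and Mir208b at 2.78 ± 1.24 CPM and Mir208a at 1.31 ± 0.320 CPM were under the minimum (SD, n = 2). In all, 8 of the 10 were detected, beside 17.5% of all 1973 genes. Mir26b was above every gene of the list in both libraries, but it was chosen by its level, so this is a description only.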

How the data were processed

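Small RNA was sequenced from 2 replicates of embryonic kidney. The authors deposited raw read counts per miRNA gene, aligned to mm10 and counted on GENCODE M4, per the deposit's file descriptions; which aligner and counter they used is not given in the sources used here. The tables have 3 columns of counts (both strands, own strand, opposite strand) and 4 tallies, which were left out of totals. Own-strand counts were divided by their total to give CPM. Log values used a pseudocount of 1 CPM. Symbols and positions came from GENCODE M21, which matched 1894 of 1973 identifiers, and mature strands from RefSeq.

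No contrast between groups exists, so no test between conditions was run and edgeR's quasi-likelihood test was not used; intervals are exact binomial. edgeR (TMM) and DESeq2 gave alternative scalings. The members and lists were chosen with earlier results of these data known. Named genes were the members, the 2 detected genes on each side in mean CPM, the 6 mixed seed families of highest summed CPM and the list of paralogous hosts. The ratio between replicates and its interval were tested on simulated counts with counting error only, and the other calculations were not. Software was Python 3.11.15 with pandas 2.3.3, scipy 1.17.1, matplotlib 3.10.9 and numpy 2.4.6, and R 4.3.3 with DESeq2 1.42.0 and edgeR 4.0.16.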

Additional observations from a re-analysis of the deposited data

How the results depend on the processing

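No result reversed in the 50 alternatives run for 10 results. In 10 of them a replicate was left out of a mean of 2, which moves it by a fixed part of the SD and says nothing on stability. Of the other 40, 31 moved a value by less than 1 SD between replicates, less than the counting interval or, for counts of genes or families, less than 1.5 times. The excess of Mir26b over the mean of the miR-26a copies (9.61 in log2) was 9.60 with both strands, 9.63 and 9.43 with pseudocounts of 0.5 and 5 CPM, 9.56 with all reads as denominator, and 9.64 per hairpin length, an alternative added after the data were examined. With either replicate left out it ranged from 9.48 to 9.73, and Mir26a-1 minus Mir26a-2 from -1.54 to -1.13. The number of genes past 1.5-fold between replicates, 53, was 35 at a minimum of 20 counts and 171 with no minimum, where fewer or more genes enter. The 13 seed families were 13 with either replicate left out. The CPM of all 3 members fell with all reads as denominator, to 14176, 10.9 and 28.1 for Mir26b, Mir26a-1 and Mir26a-2, as that total is larger. It rose to 31643, 24.4 and 63.2 in the same order when the most abundant gene was left out of the total. The log2 ratio of Mir26b between replicates was 0.247 with DESeq2 size factors, outside its counting interval of 0.253 to 0.276. With TMM it was 0.268, inside that interval. No paired analysis was possible because there is 1 group. The depth limits the miR-26a copies, whose 83 to 300 counts leave intervals wider than their replicate difference.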

Other observations

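The 3′ UTRs of the hosts were searched for TACTTGA, the 7-base match to the miR-26 seed, on the strand of the messenger RNA and in the longest annotated 3′ UTR of each gene. It occurred 1 time in Ctdsp2 and 1 time in Ctdspl2, the family member without a miRNA gene, and 0 times in Ctdsp1 and Ctdspl. The sites are shown with the match in capitals.
Ctdsp2: tgttgctctTACTTGAtttgccaaa
Ctdspl2: ttgacaatgTACTTGAtcaggaatt
Among 3′ UTRs within 20% of the same length, 23.1% of 1917 genes held the match for Ctdsp2 and 19.4% of 2246 for Ctdspl2, and the share was 9.67% over all 21028 genes with a 3′ UTR. For the lengths of Ctdsp1 and Ctdspl it was 10.9% and 22.1%. A match of these letters is a description of the sequence, and host levels are not measured here.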
